A study of Homo sapiens with 16 samples.

Results

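The genes of the Polycomb repressive complexes were examined in HCT116 and RKO, a pair of established lines from human colon cancer, under drugs that act on DNA methylation, histone acetylation and poly(ADP-ribosylation). The 10 genes were EZH1, EZH2, SUZ12, EED and JARID2 of Polycomb repressive complex PRC2, BMI1, CBX2, CBX7 and CBX8 of PRC1, and the PRC2 inhibitor EZHIP. A probe set of the array was taken as a member where the annotation of the platform gave it one of these symbols or an older alias, whatever its signal. Of the 54675 probe sets on the array, which carry 21357 gene symbols, 22 were members. They covered 9 of the 10 genes, and no probe set was found for CBX8. A single symbol belonged to 20 of them, and the other 2 were shared, 202265_at between BMI1 and the read-through gene COMMD3-BMI1 and 213971_s_at between SUZ12 and the pseudogene SUZ12P1.

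Polycomb proteins keep developmental genes silent. PRC2 places methyl groups on the tail of histone H3 through its catalytic subunit, EZH2 or EZH1, and needs SUZ12, the scaffold, and EED, which binds the finished mark and stimulates the enzyme. JARID2 is an accessory subunit that helps to bring PRC2 to chromatin. PRC1 contains a CBX protein, which reads the methyl mark, and a PCGF protein such as BMI1, which stimulates the RING subunits that ubiquitinate histone H2A. EZHIP blocks the catalytic subunit of PRC2 and is normally restricted to the germline.

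Each line had 8 arrays with 1 array per condition. The conditions were TSA, 5-aza-dC or PJ-34 alone, the pairs 5-aza-dC/TSA, PJ-34/TSA and PJ-34/5-aza-dC, all 3 drugs in 1 culture, and a control, and treatment lasted 3 days. 5-aza-dC, which inhibits DNA methyltransferases, was used at 0.5 µM, and TSA, which inhibits histone deacetylases, at 150 nM. PJ-34, which inhibits poly(ADP-ribose) polymerases, was used at 3 µM in HCT116 cells, while for RKO cells the methods section gives 2 µM and the results section 3 µM. The cells of each condition were a culture of 1 established line, and each array was labelled as replicate 1. A drug could therefore be tested only over the 4 arrays with it against the 4 arrays without it. Within a line p-values rest on the spread left after additive terms for the 3 drugs. Any joint effect of drugs beyond their sum counts there as spread, and no spread between replicate cultures was measured. Values are deposited signals in linear units, scaled to a common mean on every array, and signals of different probe sets cannot be set against each other.

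The median signal of an array was 151.8 to 210.1, and log2 signals correlated at 0.933 to 0.968 within a line and 0.868 to 0.901 between the lines. Of 10 colon epithelium markers, only KRT18 and EPCAM were high in both lines. In HCT116 they read 75723.2 to 125452.0 and 28157.7 to 35437.8, and in RKO 14319.2 to 16263.3 and 3543.9 to 4138.7. KRT8 read 11938.9 to 35260.7 in HCT116 and 269.7 to 519.8 in RKO. KRT20 reached 3565.9 in HCT116 and 313.6 in RKO, and LGALS4 441.2 and 155.0 in the same order. KRT19 (5.0 to 18.2) and CDH1 (3.9 to 117.4) were near background in RKO, and CDX1, CDX2 and VIL1 did not pass 253.4 in either line. Markers of blood, endothelial cells and fibroblasts did not pass 865.1 (COL1A1 in RKO). In RKO the array labelled PJ-34/5-aza-dC and that labelled PJ-34 went against their labels. Over the 238 probe sets that 5-aza-dC raised in HCT116, the median log2 ratio to the control of the line was 0.54 in the RKO array labelled PJ-34 and 0.00 in that labelled PJ-34/5-aza-dC, against 0.55, 0.60 and 0.71 in the other RKO arrays with 5-aza-dC. Whether the 2 arrays were exchanged was not tested. They were used under their labels, and the main results that rest on them are also given without both.

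The promoters of 4 genes are shown. EZHIP was taken since its signal was near background on most arrays. EED, SUZ12 and JARID2 were taken since with TSA in HCT116 EED was higher, while a probe set of SUZ12 and a probe set of JARID2 were lower. The sequences are the 250 bases before the annotated start in RefSeq (GRCh38.p14), read on the strand of the gene, at chrX:51406698-51406947 (plus strand) for EZHIP, chr11:86244503-86244752 (plus) for EED, chr17:31936757-31937006 (plus) for SUZ12 and chr6:15245819-15246068 (plus) for JARID2. Capitals mark CpG dinucleotides, the sites that DNA methyltransferases modify.
EZHIP promoter: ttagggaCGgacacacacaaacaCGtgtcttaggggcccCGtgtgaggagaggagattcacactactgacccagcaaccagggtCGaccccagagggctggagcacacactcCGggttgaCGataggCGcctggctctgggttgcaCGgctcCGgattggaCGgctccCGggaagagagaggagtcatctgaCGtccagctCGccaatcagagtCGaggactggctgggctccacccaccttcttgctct
EED promoter: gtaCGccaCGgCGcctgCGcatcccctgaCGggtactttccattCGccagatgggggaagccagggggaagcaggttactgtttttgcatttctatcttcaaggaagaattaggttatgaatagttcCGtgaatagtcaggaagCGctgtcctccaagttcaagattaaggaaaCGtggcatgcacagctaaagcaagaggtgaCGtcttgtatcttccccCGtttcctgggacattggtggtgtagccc
SUZ12 promoter: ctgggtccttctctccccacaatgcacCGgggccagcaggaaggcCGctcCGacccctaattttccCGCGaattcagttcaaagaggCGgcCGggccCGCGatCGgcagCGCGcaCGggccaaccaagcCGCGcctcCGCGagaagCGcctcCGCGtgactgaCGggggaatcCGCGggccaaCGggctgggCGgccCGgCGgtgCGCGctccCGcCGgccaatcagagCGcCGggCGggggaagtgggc
JARID2 promoter: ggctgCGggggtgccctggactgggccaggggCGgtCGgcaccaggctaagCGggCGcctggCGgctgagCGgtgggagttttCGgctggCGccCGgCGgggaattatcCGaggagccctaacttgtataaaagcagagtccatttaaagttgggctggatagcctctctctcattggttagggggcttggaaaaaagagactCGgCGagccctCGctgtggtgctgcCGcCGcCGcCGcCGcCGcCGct

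EZHIP held 14 CpG dinucleotides in this window and EED 11, against a median of 11 over 35116 promoters. SUZ12 held 34 and JARID2 22. Of the members not printed, CBX7 held 41, EZH2 38, BMI1 35 and EZH1 26, and CBX2 and CBX8 were not in the table. Of the E2F motifs TTTCCCGC, TTTGGCGC and TTTGCGCC, searched on both strands, only TTTCCCGC was found, and in SUZ12 alone among the 8 promoters. It was in 1.39% of all promoters, and any of the 3 motifs was in 2.41%. CCAAT was found in 6 of the 8, all but EZH1 and BMI1, and in 32.0% of all promoters, and TATAAA in JARID2 and in 10.7% of all promoters. A match is a description of the letters only.

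EZHIP (probe set 1555396_s_at, chrX:51406948-51408843) read 245.9 in the HCT116 array with 5-aza-dC and 420.7 in that with PJ-34/5-aza-dC. It read 92.6 with TSA, 24.3 with 5-aza-dC/TSA, 19.3 with all 3 drugs, 16.1 with PJ-34 and 10.8 with PJ-34/TSA, against 15.4 in the HCT116 control. The signal was thus high in the 2 arrays with 5-aza-dC and no TSA, and it was not high in the 2 arrays with 5-aza-dC and TSA.

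In RKO the highest EZHIP signal, 224.4, was in the array labelled PJ-34. It was followed by 121.8 with 5-aza-dC/TSA and 100.5 with all 3 drugs. The other RKO arrays read 28.7 with PJ-34/TSA, 17.0 with TSA, 14.7 with 5-aza-dC and 11.1 in that labelled PJ-34/5-aza-dC, against 20.4 in the control. The signal was above 100 in these 3 arrays alone.

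EZHIP reached a signal of 100 in fewer than 4 arrays of each line and was not tested within a line. In the model of both lines the 5-aza-dC effect in HCT116 minus that in RKO was 1.09 on the log2 scale (SE 0.94, limma adjusted p = 0.83), and without both doubted RKO arrays it was -0.07 (SE 0.86, adjusted p = 0.991). With single arrays and a floor of 50 under the low signals, no drug effect on EZHIP could be called.

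**Figure D1:**
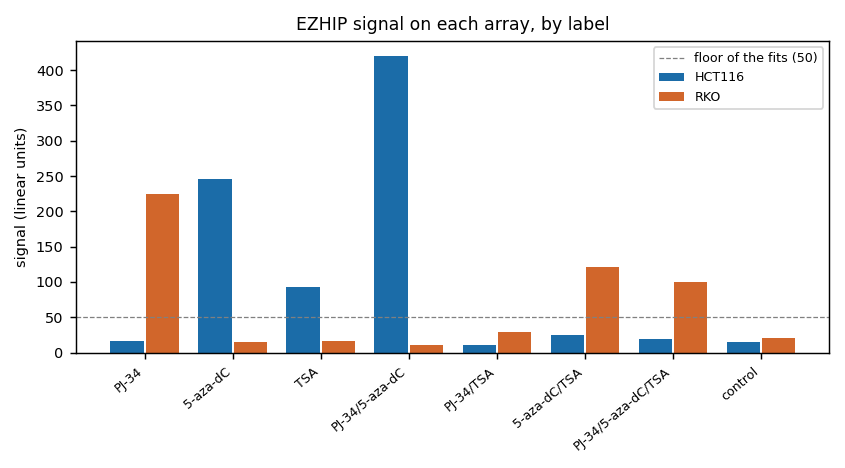
EZHIP signal (linear units, from 0) on each of the 16 arrays by labelled condition, with HCT116 left of RKO and the control last; the dashed line is the floor of 50 used in the tests. HCT116 arrays with 5-aza-dC (245.9) and PJ-34/5-aza-dC (420.7) and the RKO array labelled PJ-34 (224.4) stand highest.

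The first question was whether TSA changed the RNA of the complexes in HCT116. EED rose, while SUZ12 fell by 1 of its 4 probe sets and JARID2 by 1 of its 3. EZH2, EZH1, BMI1 and CBX2 did not pass the test. Of 19 member probe sets tested 3 passed, 1 higher and 2 lower, while 8.99% of all 35373 probe sets tested passed. The share of members is thus 3 of 19, and with so few members it is not set apart from that background. Over the 8 genes tested the median log2 difference was -0.02, against -0.07 over all probe sets.

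EED (209572_s_at, chr11:86244753-86287615), the subunit that binds the methyl mark, read 9271.6 with TSA, 9490.6 with PJ-34/TSA, 7955.1 with 5-aza-dC/TSA and 7946.4 with all 3 drugs. Its signals without TSA were 5646.5 in the control, 5156.2 with PJ-34, 5217.1 with 5-aza-dC and 6228.2 with PJ-34/5-aza-dC. All 4 arrays with TSA lay above all 4 without it. The log2 difference was 0.64 (SE 0.11, limma adjusted p = 0.00411), or 1.56-fold higher, and the signal was higher in 4 of 4 pairs of arrays that differ in TSA alone. As whole cultures were measured, a change in the share of cells and a change per cell cannot be told apart. The second EED probe set, 210656_at, read 6.6 to 216.2 in HCT116 and did not pass the filter on low signals there.

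SUZ12 (212287_at, chr17:31937007-32001038), the scaffold, read 9545.7 with TSA, 11605.2 with PJ-34/TSA, 11407.5 with 5-aza-dC/TSA and 6571.9 with all 3 drugs, against 15028.1 in the control, 13806.1 with PJ-34, 18152.0 with 5-aza-dC and 10177.7 with PJ-34/5-aza-dC. The groups overlapped through the PJ-34/5-aza-dC array, although SUZ12 was lower in 4 of 4 pairs. The log2 difference was -0.55 (SE 0.16, limma adjusted p = 0.0428), or 1.46-fold lower. The probe set shared with SUZ12P1 gave -0.37 (SE 0.14, adjusted p = 0.125). Of the other SUZ12 probe sets, 1566191_at gave -0.28 (SE 0.31) and 1566190_at -0.17 (SE 0.47), neither past the test.

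JARID2 (chr6:15246069-15522042), the accessory subunit, has a pair of bright probe sets. With 203298_s_at it read 2078.7 with TSA, 2121.2 with PJ-34/TSA, 2173.2 with 5-aza-dC/TSA and 2659.0 with all 3 drugs, against 2934.6 in the control, 3007.3 with PJ-34, 3610.8 with 5-aza-dC and 3397.4 with PJ-34/5-aza-dC. No array with TSA reached any array without it, and the log2 difference was -0.52 (SE 0.12, limma adjusted p = 0.0173), or 1.43-fold lower. With 203297_s_at, which has the highest mean signal of the JARID2 probe sets and stands for the gene, the arrays with TSA (2131.7 to 2445.5) were also below those without it (2460.6 to 3744.4), but the difference of -0.38 (SE 0.14) did not pass the test (adjusted p = 0.12). The third probe set, 240674_at, read 16.3 to 132.0 in HCT116.

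CBX7 (212914_at, chr22:39130772-39152680), a chromodomain reader of the methyl mark in PRC1, read 845.7 with TSA, 829.5 with PJ-34/TSA, 725.9 with 5-aza-dC/TSA and 971.0 with all 3 drugs, against 1093.4 in the control, 1307.9 with PJ-34, 1287.1 with 5-aza-dC and 1269.6 with PJ-34/5-aza-dC. The groups did not overlap, and the log2 difference of -0.56 (SE 0.17) lay just outside the threshold (limma adjusted p = 0.0506). With a signal floor of 20 the adjusted p was 0.0493. With the matched pairs of arrays as a block, a fit added after seeing the data, it was 0.0354. CBX7 did not pass in 3 of 6 alternative fits or in 6 of 8 fits that left out 1 array. The highest limma adjusted p among these fits was 0.192. In all, the groups did not overlap for 4 of the 19 member probe sets, the 2 of JARID2 and those of EED and CBX7, while 13.2% of all probe sets did not overlap.

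The other genes gave smaller differences in HCT116. The catalytic subunit EZH2 (203358_s_at, chr7:148807383-148884291) read 3266.6 to 3647.8 with TSA and 2727.7 to 3617.8 without it, a log2 difference of 0.11 (SE 0.11). Its paralogue EZH1 (chr17:42700275-42745040) gave -0.14 (SE 0.21) with 32259_at and -0.61 (SE 0.26, limma adjusted p = 0.164) with 203249_at, and the other 3 EZH1 probe sets gave 0.26, 0.14 and -0.56. The differences were 0.13 (SE 0.14) for the probe set of BMI1 (chr10:22321099-22331706) and 0.25 (SE 0.17) for CBX2 (226473_at, chr17:79777311-79787983), another chromodomain reader. None of these passed the test.

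The calls of the TSA comparison depended on how the variance was modelled. With no trend of the variance on signal no probe set of any gene passed, and the adjusted p was 0.133 for EED, 0.144 for JARID2 203298_s_at and 0.257 for SUZ12. With no filter on low signals 323 probe sets and no member passed, and these adjusted p were 0.0683, 0.0587 and 0.293. The EED call held when any 1 of the 8 arrays was left out. The SUZ12 and JARID2 203298_s_at calls were lost on leaving out 1 array in 5 of 8 cases each, with adjusted p up to 0.206 for SUZ12 and 0.0971 for JARID2.

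**Figure D2:**
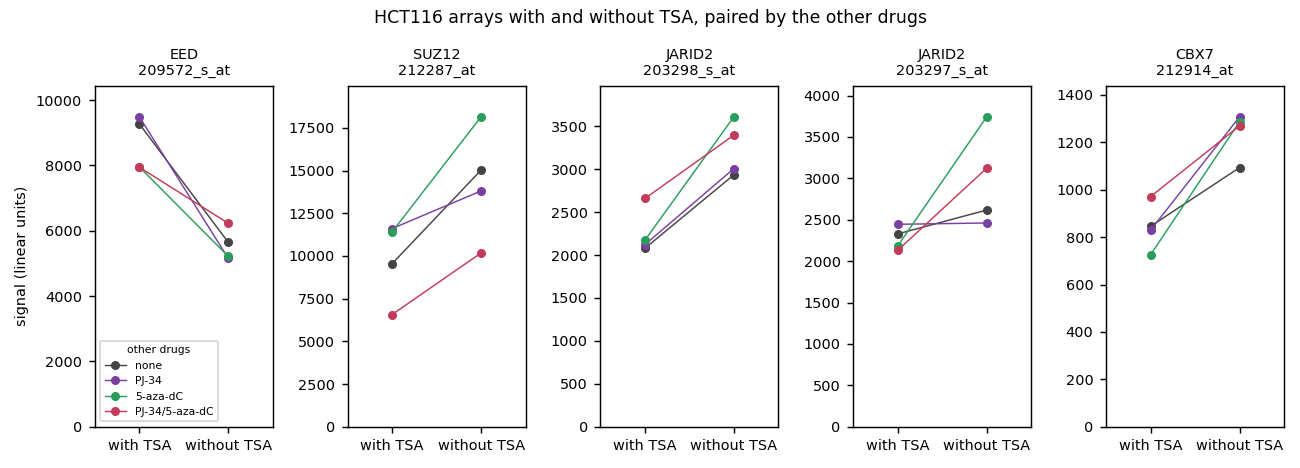
Signal (linear units, from 0) of 5 member probe sets in HCT116 with TSA (left) and without TSA (right); lines join the arrays that had the same other drugs, named in the key. EED is higher with TSA on all 4 lines, and SUZ12, JARID2 and CBX7 are lower on all 4.

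Proliferation genes moved with TSA in HCT116 beside these subunits. Each gene of this list was read by its brightest probe set, while the share of all probe sets includes dim ones. Over all probe sets 8.99% passed for TSA in HCT116, with a median log2 difference of -0.07. With no trend of the variance on signal no probe set passed there. In the main fit, of 16 proliferation genes tested 8 rose and none fell, with a median log2 difference of 0.49. Among them PCNA, the replication clamp, averaged 34490.7 with TSA and 20547.8 without it (log2 difference 0.76, SE 0.11, limma adjusted p = 0.00133). In RKO none of the 16 genes passed for TSA, with a median of 0.06, and 0.00591% of all probe sets passed there. The part of proliferation in the EED, SUZ12 and JARID2 results was not tested.

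Other Polycomb genes were read from a list of 44 genes that holds the partners of PRC2 and PRC1, the Polycomb deubiquitinase and the histone H3 demethylases. Each listed gene was read by its brightest probe set with 1 symbol, so list shares and shares of all probe sets are of unlike sets. With TSA in HCT116, 2 of 39 tested rose and 3 fell, which is 12.8% against 8.99% of all probe sets, and the median log2 difference was -0.12 against -0.07. PHF19, a PRC2 subunit that binds chromatin, rose by 0.68 (SE 0.14, limma adjusted p = 0.00992), with mean signals of 2932.5 with TSA and 1833.7 without it. CBX6, a CBX protein of PRC1, rose by 0.50 (SE 0.13, adjusted p = 0.0307). LCORL, a PRC2-associated protein, fell by 0.75 (SE 0.20, adjusted p = 0.032), and PHC2, a polyhomeotic subunit of PRC1, fell by 0.44 (SE 0.12, adjusted p = 0.036).

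In RKO no member passed the test for TSA, and 0.00591% of all 33862 probe sets did. An unadjusted p under 0.05 was found for 2 of the 18 member probe sets tested. SUZ12 read 16978.1 with TSA, 17111.0 with PJ-34/TSA, 16825.7 with 5-aza-dC/TSA and 14696.3 with all 3 drugs, against 18288.7 in the control, 17961.8 in the array labelled PJ-34, 18224.6 with 5-aza-dC and 18411.1 in that labelled PJ-34/5-aza-dC. All 4 arrays with TSA lay below the others, with a log2 difference of -0.15 (SE 0.07, limma adjusted p = 0.415). Such a separation was seen for 2 of the 18 member probe sets, SUZ12 212287_at and BMI1 202265_at, and for 7.33% of all probe sets.

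EED differed by 0.10 (SE 0.10) with TSA in RKO, with 8686.2 to 12631.1 in the arrays with TSA and 8844.7 to 10592.5 in those without it. CBX7 differed by -0.32 (SE 0.17) and JARID2 203298_s_at by -0.03 (SE 0.14). Without both doubted arrays the SUZ12 difference was -0.11 (SE 0.09), that of EED 0.05 (SE 0.10) and that of CBX7 -0.25 (SE 0.24).

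The TSA effect in HCT116 minus that in RKO was tested in the model of both lines, where 0.283% of 42119 probe sets passed and none of the 21 members tested did. The difference was 0.54 for EED (SE 0.14, limma adjusted p = 0.118), -0.40 for SUZ12 (SE 0.16, adjusted p = 0.335) and -0.44 for JARID2 203297_s_at (SE 0.22, adjusted p = 0.454). At an unadjusted p under 0.05 there were 3 members. Without both doubted arrays 0.291% of 41191 probe sets and no member passed, and the differences were 0.61 for EED (SE 0.18), -0.55 for SUZ12 (SE 0.20) and -0.47 for JARID2 203297_s_at (SE 0.28). A call in HCT116 and none in RKO is therefore not shown to be a difference between the lines.

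**Figure D3:**
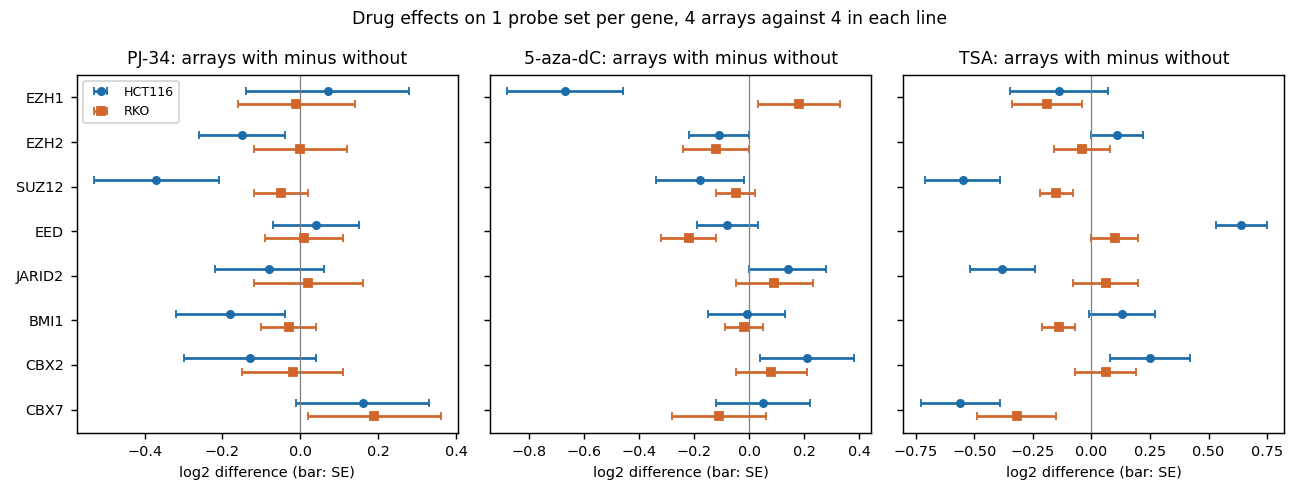
Log2 difference of the arrays with each drug minus those without it for 1 probe set per gene (points; bars are the standard error), in HCT116 (circles) and RKO (squares, drawn below). The largest values in HCT116 are 0.64 for EED with TSA and -0.67 for EZH1 with 5-aza-dC, and RKO values lie between -0.32 and 0.19.

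5-aza-dC changed no member past the test in HCT116, where 0.744% of all probe sets passed, and 1 of the 19 members had an unadjusted p under 0.05. This was EZH1 32259_at, which read 825.8 with 5-aza-dC, 733.0 with PJ-34/5-aza-dC, 907.5 with 5-aza-dC/TSA and 953.9 with all 3 drugs, against 1784.3 in the control, 1491.5 with PJ-34, 901.1 with TSA and 1387.0 with PJ-34/TSA. The groups overlapped through the TSA array alone. The log2 difference was -0.67 (SE 0.21, limma adjusted p = 0.231), and without the HCT116 TSA array it was -0.91 (SE 0.18, adjusted p = 0.00916). That array is the one through which the groups overlapped. The difference did not pass in 7 of 8 fits that left out 1 array or in any of 6 alternative fits. Over all these fits it ran from -0.91 to -0.49, with a limma adjusted p of up to 0.673. The other 4 EZH1 probe sets gave -0.44 to 0.07, and in RKO 32259_at gave 0.18 (SE 0.15).

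In RKO no probe set passed for 5-aza-dC in limma (0%), with 1759 of 33862 at an unadjusted p under 0.05 and none of the 18 members. Without both doubted arrays 1.96% of 31057 probe sets passed, and EED was the 1 member that did. EED read 8922.5 with 5-aza-dC, 9135.6 with 5-aza-dC/TSA and 8686.2 with all 3 drugs, against 10592.5 in the control, 11136.2 with TSA and 12631.1 with PJ-34/TSA. On these 6 arrays EED fell by 0.36 on the log2 scale (SE 0.08, limma adjusted p = 0.0419). The left-out arrays read 8844.7 (labelled PJ-34) and 10097.2 (labelled PJ-34/5-aza-dC), and with all 8 arrays the difference was -0.22 (SE 0.10, adjusted p = 0.882). EZH2 gave -0.30 (SE 0.09, adjusted p = 0.131) without the 2 arrays and -0.12 (SE 0.12) with them. For the 5-aza-dC effect in HCT116 minus that in RKO, 0.0427% of probe sets passed and no member did, with 1 member at an unadjusted p under 0.05, EZH1 32259_at (-0.85, SE 0.26, limma adjusted p = 0.511). Without both doubted arrays 95 of 41191 probe sets (0.231%) and no member passed, and EZH1 32259_at gave -0.87 (SE 0.28, adjusted p = 0.377).

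PJ-34 changed no probe set past the limma test in HCT116 (0%, with 1323 at an unadjusted p under 0.05) or in RKO (0%, with 895), and the smallest adjusted p of a member was 0.981 in HCT116 and 1 in RKO. SUZ12 212287_at was the 1 member with an unadjusted p under 0.05 in HCT116. Its arrays with PJ-34 read 6571.9 to 13806.1 and those without it 9545.7 to 18152.0, a log2 difference of -0.37 (SE 0.16) with 3 of 4 pairs lower. The difference of the PJ-34 effect between the lines also gave no call (0%), and SUZ12 gave -0.32 there (SE 0.16). Without both doubted RKO arrays SUZ12 gave -0.16 (SE 0.20), and there was no call in RKO or between the lines.

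Whether 2 drugs together did more or less than the sum of their effects on the log2 scale was tested over both lines. No probe set passed for PJ-34 by 5-aza-dC (0%), PJ-34 by TSA (0%) or 5-aza-dC by TSA (0%), with 2872, 1307 and 1887 of 42119 at an unadjusted p under 0.05 in limma and 3, 0 and 1 of the 21 members. SUZ12 212287_at gave -0.49 for PJ-34 by 5-aza-dC (SE 0.16, limma adjusted p = 0.713). In HCT116 the SUZ12 signal was 10177.7 with PJ-34/5-aza-dC, against 13806.1 with PJ-34 and 18152.0 with 5-aza-dC, while in RKO the array labelled PJ-34/5-aza-dC (18411.1) was close to the single drugs. EED gave -0.35 for 5-aza-dC by TSA (SE 0.14, limma adjusted p = 0.981). Without both doubted arrays 2, 1 and 4 of 41191 probe sets passed for these interactions in the same order, and no member did. SUZ12 then gave -0.61 (SE 0.16, limma adjusted p = 0.2) and EED -0.27 (SE 0.15, adjusted p = 0.75).

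**Figure D4:**
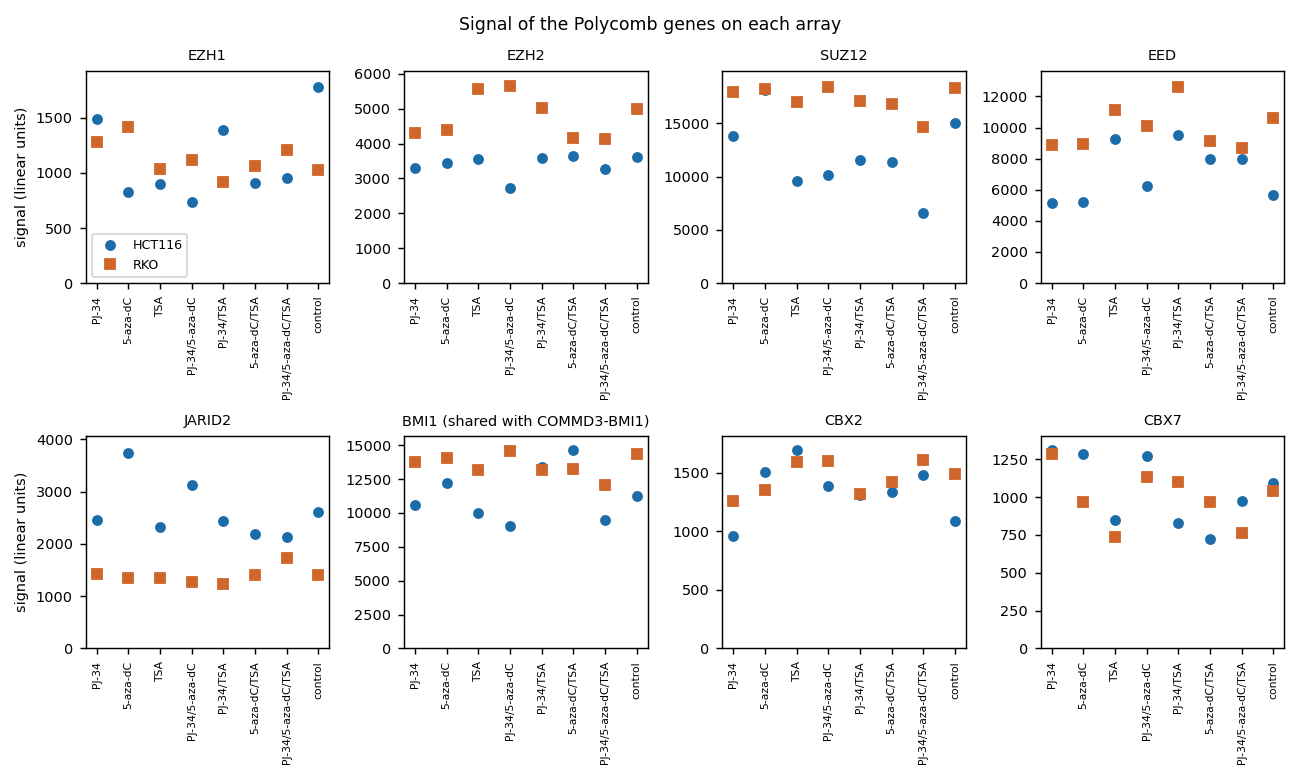
Signal (linear units, each panel from 0) of 1 probe set for each of 8 Polycomb genes in HCT116 (circles) and RKO (squares), 1 point per array, by labelled condition with the control last. JARID2 is higher in HCT116 than in RKO in every condition, and EZH2, EED and SUZ12 are lower.

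More probe sets passed the test between the lines than for any drug. The line was tested on 8 arrays against 8 and each drug on 4 against 4, so these counts are of unlike tests. JARID2 was higher in HCT116 than in RKO, and EZH2, SUZ12, EED and the probe set of BMI1 were lower. Of the 21 member probe sets tested 7 passed, 2 higher and 5 lower in HCT116, while 43.8% of all probe sets passed. The members' share is not above that background. By 1 probe set per gene, 5 of 9 genes passed.

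JARID2 203298_s_at had a lowest signal of 2078.7, a median of 2796.8 and a highest of 3610.8 in HCT116, against 1077.0, 1221.3 and 1472.6 in RKO. The groups did not overlap, and the log2 difference was 1.11 (SE 0.09, limma adjusted p = 4.8e-08), or 2.16-fold higher. JARID2 203297_s_at gave 0.90 (SE 0.11, adjusted p = 4.71e-06) with 2131.7 to 3744.4 in HCT116 and 1229.6 to 1733.0 in RKO. Both probe sets were higher in HCT116 in 8 of 8 conditions.

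EZH2 had a lowest signal of 2727.7, a median of 3494.9 and a highest of 3647.8 in HCT116, against 4139.0, 4688.5 and 5654.2 in RKO. Every HCT116 array lay below every RKO array, and the log2 difference was -0.49 (SE 0.09, limma adjusted p = 0.000288), or 1.40-fold lower. These 3 probe sets of JARID2 and EZH2 were the members whose groups did not overlap, while 19.7% of all probe sets did not overlap.

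SUZ12 212287_at had a lowest signal of 6571.9, a median of 11506.4 and a highest of 18152.0 in HCT116, against 14696.3, 17536.4 and 18411.1 in RKO. It was lower in HCT116 in 8 of 8 conditions, and the difference on the log2 scale was -0.58 (SE 0.08, limma adjusted p = 2.34e-05). The smallest gap was with 5-aza-dC, where HCT116 read 18152.0 and RKO 18224.6. The probe set shared with SUZ12P1 gave -0.51 (SE 0.10, adjusted p = 0.000555).

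EED 209572_s_at had a lowest signal of 5156.2, a median of 7087.3 and a highest of 9490.6 in HCT116, against 8686.2, 9616.4 and 12631.1 in RKO. The log2 difference was -0.52 (SE 0.07, limma adjusted p = 1.54e-05), again lower in HCT116 in 8 of 8 conditions. The overlap came from HCT116 arrays with TSA, of which those with TSA (9271.6) and PJ-34/TSA (9490.6) exceeded the lowest RKO arrays. In the controls EED read 5646.5 in HCT116 and 10592.5 in RKO.

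The probe set of BMI1, the PCGF subunit that stimulates the RING enzymes, read 9049.3 to 14660.4 in HCT116 and 12075.4 to 14553.7 in RKO. The log2 difference was -0.27 (SE 0.08, limma adjusted p = 0.0113). It no longer passed without both doubted arrays (-0.22, SE 0.10, adjusted p = 0.0981) or without the HCT116 array with all 3 drugs (-0.22, SE 0.09), and the signals of BMI1 and COMMD3-BMI1 cannot be told apart. CBX2 226473_at (-0.13, SE 0.10), CBX7 (0.05, SE 0.12), EZH1 32259_at (-0.07, SE 0.13) and EZHIP (0.23, SE 0.47) did not pass. Without both doubted arrays 35.5% of 41191 probe sets and 6 of the 21 members passed, and the values were 1.14 and 0.91 for the JARID2 probe sets, -0.50 for SUZ12, -0.56 for EED and -0.41 for EZH2. Of those not called, EZH1 32259_at then gave 0.07, CBX7 0.11, CBX2 226473_at -0.11 and EZHIP 0.32.

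**Figure D5:**
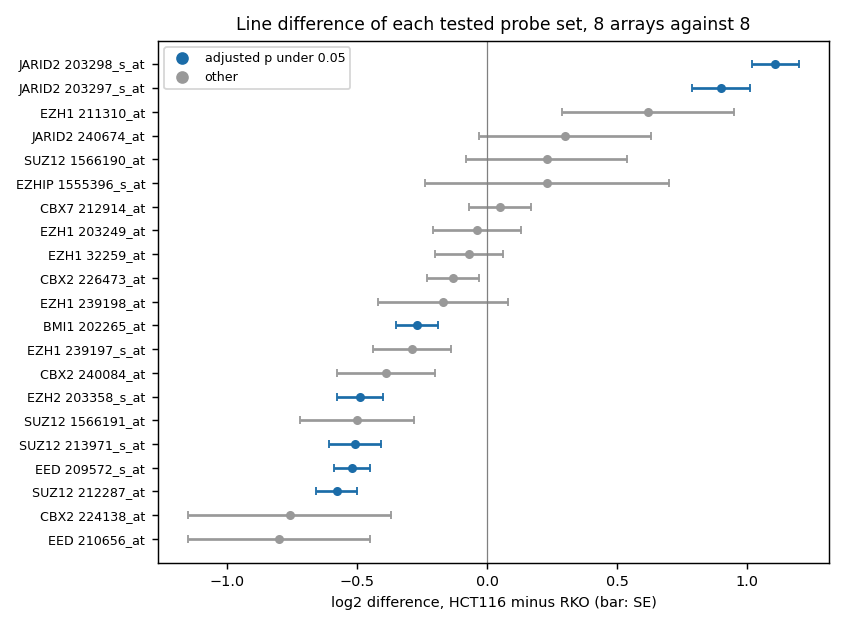
Log2 difference of HCT116 minus RKO (points; bars are the standard error) for the 21 member probe sets that passed the filter on low signals, with those past the test in blue. The JARID2 probe sets (1.11 and 0.90) lie at the top, and those of SUZ12, EED, EZH2 and BMI1 lie below 0.

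Of the other Polycomb genes 24 of 41 tested differed between the lines, 12 higher and 12 lower in HCT116. By the brightest probe set of each gene this is 58.5%, against 43.8% of all probe sets, which include dim ones. AEBP2, a PRC2 cofactor that binds DNA, averaged 2993.1 in HCT116 and 1126.5 in RKO (log2 difference 1.41, SE 0.09, limma adjusted p = 2.86e-09), and PCGF1, a relative of BMI1, averaged 3329.2 and 1394.8 in the same order (1.26, SE 0.09). PHF19 averaged 2383.1 in HCT116 and 10570.2 in RKO (-2.18, SE 0.07). AUTS2, a partner of PRC1, read 5.8 to 135.7 with a median of 40.1 in HCT116 and 1964.6 to 2842.4 in RKO.

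Of 16 tested genes of a list of textbook Polycomb targets, 6 were higher and 3 lower in HCT116. By the brightest probe set of each gene this is 56.2%, against the 43.8% of all probe sets. LHX2, a developmental transcription factor, read 975.2 to 1805.4 in HCT116 and 6.4 to 214.1 in RKO, where the median was 43.9. GATA4, another such factor, read 7.4 to 148.8 in HCT116, where the median was 47.3, and 488.4 to 754.5 in RKO. As these medians lie under the floor of 50, no fold change is given for AUTS2, LHX2 or GATA4. None of 13 tested targets passed for any drug in HCT116 and none of 11 in RKO, with median log2 differences from -0.24 to 0.28 in HCT116 and from -0.04 to 0.20 in RKO. For PJ-34, 5-aza-dC and TSA, 0%, 0.744% and 8.99% of all probe sets passed in HCT116. In RKO 0%, 0% and 0.00591% passed, so the lack of calls there is not particular to the targets. Without both doubted arrays 1.96% of 31057 probe sets passed for 5-aza-dC in RKO, and the targets are not given for that fit. The target CDKN2A read 47.9 to 2180.1 over the RKO arrays. Its log2 difference for 5-aza-dC there was 2.09 (SE 1.09, limma adjusted p = 0.882) under the labels. The part of the complex subunits in these targets was not tested.

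The genes whose pattern was most like that of a member were found by Pearson's r of log2 signals over the 16 arrays, with each line centred on its own mean, among 11550 genes. As arrays share their scaling and drugs, r is given as a description with no p. For EED these were CACYBP (0.97), NOLC1 (0.96) and DHX9 (0.95), for SUZ12 BDP1 (0.96), CHD9 (0.94) and MANEA (0.94), and for EZH2 SKA2 (0.87), XRCC2 (0.87) and B3GALNT2 (0.85). The highest r was 0.92 for EZH1 (GCNT7), 0.87 for JARID2 (USP32P2), 0.94 for BMI1 (RLIG1), 0.92 for CBX2 (AP2B1) and 0.88 for CBX7 (STRN4).

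The members left were dim. CBX2 240084_at read 240.1 to 388.3 in HCT116 and 294.2 to 510.5 in RKO, 224138_at 10.9 to 139.4 in HCT116 and 17.2 to 250.8 in RKO, and 215989_at passed the filter in no model. EED 210656_at read 84.9 to 375.0 in RKO. EZH1 239197_s_at was lower in HCT116 in 8 of 8 conditions (373.4 to 594.6, against 487.5 to 714.2 in RKO), with a log2 difference of -0.29 (SE 0.15) that did not pass the test. No dim member passed in any comparison.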

How the data were processed

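Total RNA of the 16 cultures was hybridized to the Affymetrix Human Genome U133 Plus 2.0 array. The authors deposited signal intensity values on a linear scale, which per the labels came from GCOS and which had been brought to the same mean on every array. The sources used here give no GCOS version. Detection calls were not used. The trimmed mean of each array (2% at each end) was 999.83 to 999.85, and between 21.9% and 27.3% of its probe sets lay below 50. Arrays were grouped by the deposited titles and matched to no other label. Gene symbols came from the annotation of the platform, in which 41097 probe sets have 1 symbol, 1801 several and 11777 none, and 62 control probe sets were left out of the fits. Coordinates and promoters came from RefSeq tables of GRCh38.p14, and 8 of the 10 genes had a promoter there.

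A floor of 50 was applied before the log2 transformation. The filter kept probe sets that reached 100 in 4 or more arrays of the fit. Linear models were fitted in limma 3.58.1 (R 4.3.3) within each line, using drug terms without interactions, and in both lines together with terms for line, drug, pairs of drugs and drug by line. Variances were moderated with a trend on signal, and p-values were adjusted by Benjamini and Hochberg over all probe sets of a comparison at 0.05. There were 13 comparisons. The fits were tested on simulated data with planted changes larger than the drug effects called on members, so recovery of effects this small was not tested. The number of arrays limits the precision.

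The members and lists were chosen with earlier results of these data known. Every member is named, and its probe set with the highest mean log2 signal stands for the gene. Up to 4 other Polycomb genes with the smallest p are named per comparison, and the 3 genes most like a member in pattern were sought for members with a mean signal of at least 200. Genes of the other lists are named as examples chosen after their values were seen. Alternatives were a signal floor of 20, no filter, quantile normalization, no trend, all arrays in 1 fit, leaving out each array, and leaving out the doubted RKO arrays, labelled PJ-34/5-aza-dC and PJ-34. Matched pairs of arrays as a block within a line were added after seeing the data.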

Additional observations from a re-analysis of the deposited data

Results flagged for a closer look

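In a group of 8 arrays of a line, 3 of 18 groups tested had an array far from the others, where chance gives about 5%. EZH2 read 2727.7 in HCT116 with PJ-34/5-aza-dC, and the gap to the next array was 0.62 of the range of the line, both on the log2 scale as are those that follow. SUZ12 212287_at read 14696.3 in RKO with all 3 drugs, with a gap of 0.60 of the range. JARID2 203297_s_at read 1733.0 in the same RKO array, with a gap of 0.584 of the range, while JARID2 203298_s_at read 1244.4 there, within the 1077.0 to 1472.6 of the line.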

How the results depend on the processing

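Under a floor of 20, quantile normalization and, within a line, all arrays in 1 fit, every count of members called stayed within 1.5 times its value. No member value past the test turned its direction under any alternative. Of those not past the test that were followed, EZHIP for 5-aza-dC in HCT116 minus RKO was -0.07 and EZH1 between the lines 0.07 without both doubted arrays, against 1.09 and -0.07. Leaving out 1 array also turned the EED value for TSA in RKO (-0.01 to 0.19) and the differences between the lines of EZH1 (-0.18 to 0.05), CBX7 (-0.03 to 0.14) and EZHIP (-0.22 to 0.71). The count of members called for TSA in HCT116, 3 in the report, was 0 with no filter and 0 with no trend, and leaving out 1 array gave 1 to 5. Over all probe sets that count was 3180, against 323 with no filter, 0 with no trend, 976 without the control array, 920 without the PJ-34 array, 1004 without the 5-aza-dC array, 1815 without the PJ-34/TSA array, 1613 without the array with all 3 drugs and 5475 without the PJ-34/5-aza-dC array. For 5-aza-dC in HCT116 leaving out 1 array gave 0 to 1 member called, the 1 being EZH1 without the TSA array. For 5-aza-dC in RKO no member was called, and 1 was without both doubted arrays. The BMI1 line difference did not pass with no filter or with no trend either, and CBX7 passed for TSA in HCT116 with a floor of 20, with all arrays in 1 fit, and without the TSA or the PJ-34/5-aza-dC array. The causes of these changes were not tested. Dim probe sets near the floor carry little information, and without detection calls their signals cannot be told from background. Every array is replicate 1, so numbers pair none. A fit within each line with the pairs of arrays matched on the other drugs as a block, chosen after seeing the data, called 4 members for TSA in HCT116, CBX7 being the added one, and no member in the other 5 comparisons.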
